A study of Mus musculus with 7 samples.

Results

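The genes of the collagen chains were followed across 7 arrays of mouse embryonic fibroblasts (MEFs), 6 of them from cells transduced towards cardiac muscle and 1 from untreated cells. Members were the probe sets whose platform gene symbol is Col, a number, the letter a and a number. This rule found 42 genes of 19505 named genes on the array, each with 1 probe set. Of these, 11 encode fibrillar chains, 6 type IV network chains, 3 short-chain network chains of types VIII and X, 6 beaded type VI chains, 8 fibril-associated chains, 2 multiplexins, 4 transmembrane chains and 2 remaining chains. Col7a1 and Col12a1 had no probe set under their symbol and were not analysed here.

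Collagens are triple-helical proteins of the extracellular matrix, assembled from chains that carry long runs of a glycine-led repeat. Fibrillar collagens of types I, III and V form the cable-like fibrils that fibroblasts deposit in heart, skin and tendon. Type IV forms the sheet of basement membranes, which also wraps each cardiac muscle cell, and type VI forms beaded microfilaments near the cell surface. Fibroblasts are the main makers of types I, III and VI in the heart, and the loss of their matrix programme is one way in which reprogramming towards muscle is followed.

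Cells on 4 arrays received retroviruses for Gata4 and Tbx5 (GT) with 1 form of Mef2c. The form was isoform 2 joined to MyoD's transactivation domain (GT/M2TAD), isoform 6 (GT/M6), isoform 2 (GT/M2) or isoform 1 (GT/M1). A further 2 arrays held transduced cells given siRNA, short double-stranded RNA that lowers a chosen transcript, either aimed at Ep300, which encodes the acetyltransferase p300 (siEp300), or a control (siCtrl). The titles of those samples name GT/M2 and their source names GT/M2TAD, so the Mef2c form is not settled. Transduced cells were harvested after 1 week. The MEF array held cells labelled as not treated, and no empty-virus array was analysed here, so in every comparison with it the factors, the infection and the time in culture cannot be told apart. The labels give neither strain nor age. Each group had 1 array, hence no difference below has a replicate check or a p-value.

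Values are log2 signals of a 1-colour array, and all differences are differences of log2 signals, so that 1 is a 2-fold difference. A gene was counted as higher or lower when its difference was at least 1 in size and its higher signal reached the median of named genes on its array, which lay between 5.38 and 5.71. Background here means the signal that 95% of an array's negative-control probes stay below, between 8.43 and 9.33, and 23.7% to 29.6% of genes lay at or above it. By that mark 12 of the 42 collagen genes were above background on at least 1 array, 4 of them on all 7, and 30 never were. The same counting rule also picked 26.8% to 54.2% of the negative-control probes that passed its floor, depending on the comparison. Fibroblast markers were present on the MEF array, with 5 of 7 measured genes above background, including Vim at 19.04 and Prrx1 at 16.32, and 0 of 7 cardiac markers were above it there. Of the transgenes, Mef2c was between 18.32 and 18.87 on the transduced arrays, against 8.24 on MEF, and Tbx5 between 14.82 and 16.23, against 5.72 on MEF. Gata4 was between 3.57 and 5.09 on the transduced arrays, against 4.22 on MEF, so its probe set does not show the Gata4 virus. Cardiac markers above background numbered 4 of 7 on siEp300 and siCtrl and 5 of 7 on each of the 4 arrays without siRNA.

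Against MEF, Col1a1, Col1a2, Col3a1 and Col5a1 of the fibrillar class and Col6a1, Col6a2 and Col6a3 of type VI were lower with each of the 4 Mef2c forms. So were the short-chain gene Col8a1 and the multiplexin Col15a1, which never reached background. The short-chain gene Col10a1 and the type IV gene Col4a5 were higher. Col4a5 never reached background, and with the floor at background only 1 collagen gene was higher on each of these 4 arrays. The share of all genes at that floor is not given here, and the shares below are for the median floor. Counted over all 42 genes, 10 were lower on GT/M2TAD than on MEF, which is 23.8% against 9.50% of all genes. On GT/M6, 9 were lower, 21.4% against 8.79%. On GT/M2, 12 were lower, 28.6% against 8.34%, and on GT/M1, 11 were lower, 26.2% against 9.52%. In the other direction 2, 4, 4 and 4 collagen genes were higher on GT/M2TAD, GT/M6, GT/M2 and GT/M1, or 4.76% on the first and 9.52% on the other 3. The share of all genes that was higher was 14.0%, 13.0%, 13.6% and 12.5% in the same order. The median difference over the 42 genes lay between -0.24 and -0.06, against 0.07 to 0.09 over all genes. Rescaling moved these counts. With quantile normalization or median centring, 15 collagen genes were lower on GT/M2 than on MEF. The all-gene count of lower genes rose too, from 1626 as deposited to 2045 with quantile normalization and 2222 with median centring. Of all genes counted as apart on GT/M2TAD, GT/M6, GT/M2 and GT/M1, 59.6%, 59.7%, 61.9% and 56.8% were higher than MEF as deposited, and 47.5%, 43.1%, 46.8% and 41.9% after centring each array on its median. In a bulk sample, fewer cells that express a gene and less RNA per cell cannot be told apart.

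The siRNA arrays had fewer collagen genes lower than MEF. On siEp300, 5 collagen genes were higher than on MEF, 11.9% against 13.4% of all genes, and 4 were lower, 9.52% against 9.29%. On siCtrl, 4 were higher and 4 lower, 9.52% each way against 10.9% each way over all genes. These shares are close to those of all genes. Of all genes counted on siEp300 against MEF, 59.1% were higher as deposited and 47.8% after median centring. The 6 comparisons with MEF share that array, so their counts are not independent of each other.

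**Figure D1:**
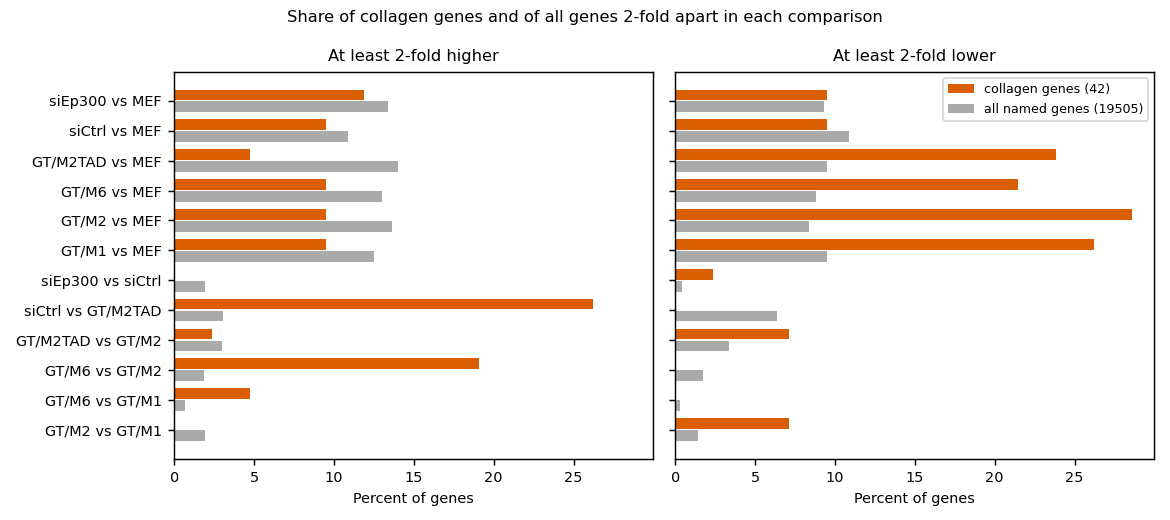
Percent of the 42 collagen genes (orange) and of all 19505 named genes (grey) that were at least 2-fold higher (left) or lower (right) on the first array of each comparison. The collagen bars exceed the grey bars most for lower genes on the 4 arrays without siRNA against MEF, for higher genes on siCtrl against GT/M2TAD (26.2% against 3.04%) and for higher genes on GT/M6 against GT/M2 (19.0% against 1.85%).

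Type I collagen, the main fibril protein of connective tissue, is built from the products of Col1a1 and Col1a2. Col1a1 had a log2 signal of 15.82 on siEp300, 15.83 on siCtrl, 13.61 on GT/M2TAD, 13.75 on GT/M6, 12.77 on GT/M2 and 12.88 on GT/M1, against 15.51 on MEF. The 4 arrays without siRNA were thus the low ones, and the siRNA arrays lay slightly above MEF. Col1a2 had 15.10 on siEp300, 15.26 on siCtrl, 11.36 on GT/M2TAD, 13.01 on GT/M6, 10.50 on GT/M2 and 12.12 on GT/M1, against 15.20 on MEF. Both genes were above background on all 7 arrays. The difference from MEF was larger for Col1a2 than for Col1a1 on each of the 4 arrays without siRNA, at -3.84 and -1.90 on GT/M2TAD, -2.19 and -1.76 on GT/M6, -4.70 and -2.73 on GT/M2, and -3.08 and -2.62 on GT/M1.

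Col3a1 encodes the single chain of type III collagen, which mixes with type I in stretchable tissues. Its signal was 12.57 on siEp300, 12.56 on siCtrl, 8.88 on GT/M2TAD, 11.33 on GT/M6, 10.35 on GT/M2 and 10.10 on GT/M1, against 12.89 on MEF. GT/M2TAD was the lowest and the only array on which Col3a1 did not reach background. This differs from the other fibrillar genes above background, which were lowest on GT/M2.

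Type V chains sit in the core of type I fibrils and help to set their width. Col5a1 had 10.18 on siEp300, 10.33 on siCtrl, 7.59 on GT/M2TAD, 8.68 on GT/M6, 7.19 on GT/M2 and 8.02 on GT/M1, against 10.91 on MEF, and was above background only on siEp300, siCtrl and MEF. Col5a2 had 13.44 on siEp300, 13.20 on siCtrl, 10.78 on GT/M2TAD, 11.78 on GT/M6, 9.69 on GT/M2 and 10.85 on GT/M1, against 11.86 on MEF. The partner chains parted on the siRNA arrays, where Col5a2 was above MEF by 1.58 on siEp300 and 1.33 on siCtrl and Col5a1 differed by -0.73 and -0.58. Col5a3, the third type V chain, was between 3.26 and 4.03 on all arrays.

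Col11a1, a type XI chain that nucleates thin fibrils in cartilage and in embryonic tissue, was high on the siRNA arrays alone. Its signal was 10.91 on siEp300 and 10.27 on siCtrl, 6.31 on GT/M2TAD, 7.03 on GT/M6, 6.23 on GT/M2 and 6.64 on GT/M1, against 7.28 on MEF. Only the siRNA arrays were above background for it. The remaining fibrillar genes, Col2a1, Col5a3, Col11a2, Col24a1 and Col27a1, were below background on every array and within 1 of MEF on every transduced array, from Col2a1 at -0.82 on GT/M1 to Col24a1 at 0.97 on siEp300.

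The most negative difference from MEF of any collagen gene belonged to a type VI gene, Col6a3. Col6a1, Col6a2 and Col6a3 encode the chains of the common type VI heterotrimer, and Col6a3 is the long chain that completes it. Col6a3 had a signal of 8.17 on siEp300, 8.04 on siCtrl, 6.94 on GT/M2TAD, 7.45 on GT/M6, 6.08 on GT/M2 and 6.68 on GT/M1, against 13.23 on MEF. No transduced array reached background for it, so the differences of -5.06 on siEp300, -5.20 on siCtrl, -6.30 on GT/M2TAD, -5.78 on GT/M6, -7.15 on GT/M2 and -6.55 on GT/M1 rest in part on background. Col6a1 had 7.36 on siEp300, 7.72 on siCtrl, 6.23 on GT/M2TAD, 6.80 on GT/M6, 5.86 on GT/M2 and 6.59 on GT/M1, against 10.82 on MEF. Col6a2 had 8.92 on siEp300, 9.01 on siCtrl, 7.40 on GT/M2TAD, 8.23 on GT/M6, 6.76 on GT/M2 and 7.64 on GT/M1, against 11.73 on MEF. Col6a1 was above background on MEF only, and Col6a2 on siEp300, siCtrl and MEF only. For all 3 genes MEF was the highest array and GT/M2 the lowest. Unlike types I and III, type VI genes were also lower than MEF on both siRNA arrays, with Col6a2 on siCtrl, at -2.71, the least apart. The alternative long chains Col6a4, Col6a5 and Col6a6 were below background on all arrays, and none was counted as apart from MEF.

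**Figure D2:**
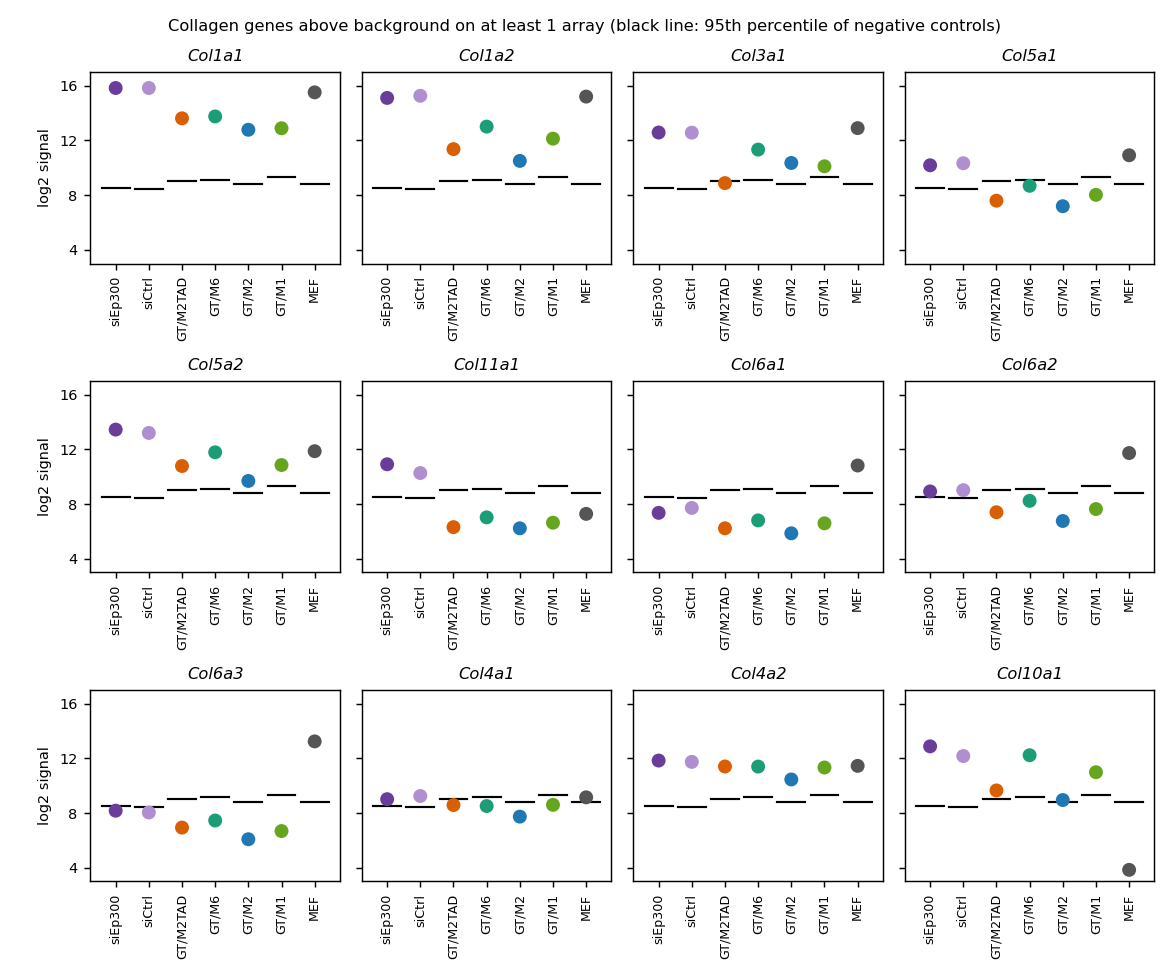
Log2 signal (vertical axis) of the 12 collagen genes that were above background on at least 1 array, with 1 point for each of the 7 arrays and a black line at the background of that array. Col1a1, Col1a2, Col3a1 and Col5a1 are lower on the 4 arrays without siRNA than on siEp300, siCtrl and MEF, the type VI genes are highest on MEF, and Col10a1 is at 3.85 on MEF and between 8.95 and 12.87 elsewhere.

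Among the network collagens, Col10a1 was higher than MEF on every transduced array. It encodes the short chain of type X collagen, known from hypertrophic cartilage, where the mouse gene is a described target of Mef2c. Its signal was 12.87 on siEp300, 12.16 on siCtrl, 9.65 on GT/M2TAD, 12.22 on GT/M6, 8.95 on GT/M2 and 10.98 on GT/M1, against 3.85 on MEF. All 6 transduced arrays were above background and MEF was not, so the differences of 9.03 on siEp300, 8.32 on siCtrl, 5.80 on GT/M2TAD, 8.38 on GT/M6, 5.10 on GT/M2 and 7.14 on GT/M1 rest in part on background. Other genes known from cartilage differed among themselves. Col11a1 lay above MEF on siEp300 and siCtrl only, as given above, and Mmp13, a collagenase of hypertrophic cartilage, was 4.37 above MEF on siEp300 and 4.68 on siCtrl but differed from it by -0.53 to 0.16 on the 4 arrays without siRNA. Mmp13 reached background on siCtrl only, at 8.48 against 8.43. The 7 chondrocyte markers had mean log2 signals between 4.22 and 4.65 on the transduced arrays, all below the MEF mean, with at most 1 of 7 above background on any array. None was at least 2-fold higher than MEF on any of the 6 transduced arrays, and Col2a1, the main cartilage fibril chain, was between 3.97 and 4.80 on all arrays. Sox9, the cartilage regulator, was 6.79 on siEp300, 7.68 on siCtrl, 8.58 on GT/M2TAD, 9.36 on GT/M6, 8.58 on GT/M2 and 9.81 on GT/M1, against 10.72 on MEF. The bone genes Sp7, Bglap, Ibsp and Alpl were below background on every array.

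The sequence just before the annotated start of Col10a1 is shown with those of Col3a1 and Col1a2 because Col10a1 lay above MEF, and Col3a1 and Col1a2 below it, on the arrays without siRNA. The 3 windows hold the 250 bases before the RefSeq start, from the promoter table of the GRCm38.p6 build, all on the plus strand. They lie at chr10:34389731-34389980 for Col10a1, chr1:45311288-45311537 for Col3a1 and chr6:4505368-4505617 for Col1a2. Capitals mark TATAAA in the first pair and CCAAT in Col1a2.
Col10a1: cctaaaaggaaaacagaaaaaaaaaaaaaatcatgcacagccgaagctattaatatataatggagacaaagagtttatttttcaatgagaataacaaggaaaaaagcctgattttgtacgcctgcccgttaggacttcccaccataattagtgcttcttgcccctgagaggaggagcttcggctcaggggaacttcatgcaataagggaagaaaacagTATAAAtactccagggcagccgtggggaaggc
Col3a1: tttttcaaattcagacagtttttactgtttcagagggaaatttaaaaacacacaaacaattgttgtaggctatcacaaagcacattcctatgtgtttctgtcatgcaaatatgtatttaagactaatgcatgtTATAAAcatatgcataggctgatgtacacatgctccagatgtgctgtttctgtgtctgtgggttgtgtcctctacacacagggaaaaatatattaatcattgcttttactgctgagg
Col1a2: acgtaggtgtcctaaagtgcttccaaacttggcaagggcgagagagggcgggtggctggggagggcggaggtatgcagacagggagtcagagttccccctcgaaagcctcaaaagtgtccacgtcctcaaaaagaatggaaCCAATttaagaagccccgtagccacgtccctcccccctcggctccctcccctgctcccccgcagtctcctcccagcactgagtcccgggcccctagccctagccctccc
Counted from the annotated start, TATAAA began at -32 in Col10a1 and at -117 in Col3a1, and CCAAT began at -109 in Col1a2. The GC content of the windows was 41.6% for Col10a1, 35.2% for Col3a1 and 62.0% for Col1a2, against a median of 59.2% over the windows of collagen genes and 52.4% over all windows.

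Of the 42 collagen genes, 34 had such a window in the table. Both strands were searched. TATAAA was in the windows of 5 of the 34 genes and in 12.4% of all 32851 windows, and CCAAT was in those of 12 genes and in 33.8% of all windows. The E-box CAGCTG was in those of 6 genes and in 13.0% of all windows. A full match to the MEF2 site searched for was found for 1 of the 34 genes, Col13a1, where it overlapped TATAAA. It was in 2.92% of all windows. The Col10a1 window had no full match, but it does hold TATAAATA at the marked TATAAA. Partial MEF2-like matches were not counted, so a MEF2-like sequence in that window is not excluded. GATAA, a core bound by Gata factors, was in the windows of 6 genes and in 22.6% of all windows, and the T-box core AGGTGT was in those of 2 genes, Col1a2 and Col24a1, and in 11.8% of all windows. Of the members above background, Col6a2 held GATAA and Col1a2 held AGGTGT. A match describes the letters of the window only.

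Of the other short-chain network genes, Col8a1, a chain of vessel and eye membranes, was lower than MEF without siRNA. It had 7.13 on siEp300, 8.33 on siCtrl, 5.63 on GT/M2TAD, 6.45 on GT/M6, 5.28 on GT/M2 and 5.99 on GT/M1, against 8.04 on MEF, always below background. Col8a2 stayed between 6.75 and 7.37.

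The type IV genes lie in 3 head-to-head pairs in the mouse genome, with 0 coding genes between the partners in each. Col4a1 and Col4a2 encode the chains found in nearly all basement membranes, Col4a3 and Col4a4 belong to the specialised network of kidney and inner ear together with Col4a5, and Col4a5 also pairs with Col4a6. Promoter windows of Col4a1 and Col4a2, on opposite strands, shared 78 bases. These windows were longer than the ones before the start that were searched above. Whether the shorter windows of this pair overlap was not tested.

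Col4a2 had 11.83 on siEp300, 11.74 on siCtrl, 11.40 on GT/M2TAD, 11.39 on GT/M6, 10.45 on GT/M2 and 11.33 on GT/M1, against 11.45 on MEF, and was above background on all arrays. Col4a1 had 9.01 on siEp300, 9.24 on siCtrl, 8.58 on GT/M2TAD, 8.51 on GT/M6, 7.74 on GT/M2 and 8.60 on GT/M1, against 9.15 on MEF. Both were lowest on GT/M2, where the differences from MEF were -1.41 for Col4a1 and -0.99 for Col4a2, and both were within 0.64 of MEF on the other arrays. On GT/M2TAD, GT/M6 and GT/M1 neither gene of this pair was 2-fold from MEF, while the type I and VI genes named above were.

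Col4a5 had 7.61 on siEp300, 7.97 on siCtrl, 7.85 on GT/M2TAD, 8.11 on GT/M6, 7.84 on GT/M2 and 8.17 on GT/M1, against 5.38 on MEF. All 6 transduced arrays lay above MEF by 2.23 to 2.79, and none reached background. Its partner Col4a6 had 5.55 on siEp300, 4.59 on siCtrl, 5.00 on GT/M2TAD, 6.70 on GT/M6, 5.08 on GT/M2 and 5.74 on GT/M1, against 4.22 on MEF, and was counted as higher on GT/M6 and GT/M1.

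Col4a3 and Col4a4 were highest on the arrays of the native isoforms. Col4a3 had 5.91 on siEp300, 5.56 on siCtrl, 6.54 on GT/M2TAD, 7.33 on GT/M6, 7.72 on GT/M2 and 7.19 on GT/M1, against 5.66 on MEF. Col4a4 had 4.73 on siEp300, 4.20 on siCtrl, 4.33 on GT/M2TAD, 5.40 on GT/M6, 5.77 on GT/M2 and 5.10 on GT/M1, against 3.96 on MEF. The arrays kept nearly the same order for both genes, with GT/M2 highest and GT/M6 next, and both genes were below background throughout.

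**Figure D3:**
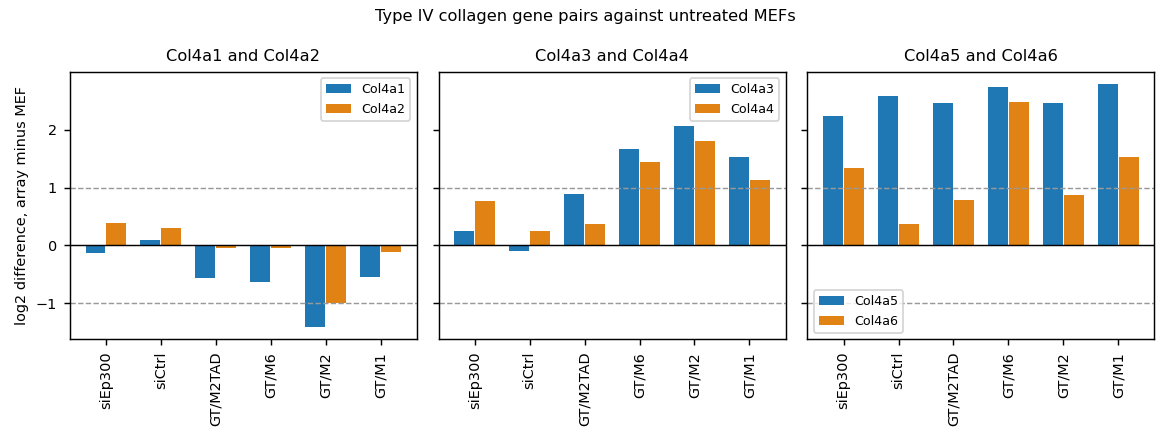
Log2 difference from MEF (vertical axis) of the 6 type IV genes on each transduced array, 1 panel for each head-to-head pair, with dashed lines at 2-fold. Col4a1 and Col4a2 are lowest on GT/M2. On GT/M2TAD, GT/M6 and GT/M1, Col4a2 stays near 0 and Col4a1 is at -0.56, -0.64 and -0.55. Col4a3 and Col4a4 are highest on GT/M2, and Col4a5 is above 2 on all 6 arrays while Col4a6 varies between 0.37 and 2.48.

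The 16 genes of the other classes were all below background on every array. Col15a1, a multiplexin of basement membrane zones, was at 4.24 on siEp300, 3.75 on siCtrl, 4.44 on GT/M2TAD, 4.06 on GT/M6, 4.19 on GT/M2 and 3.95 on GT/M1, against 5.51 on MEF, which is just above the median of genes on that array. Col15a1 was counted as lower than MEF on every transduced array. Its relative Col18a1, the source of endostatin, was counted as lower on GT/M1 only, at 5.86 against 7.34 on MEF. Among the fibril-associated genes, Col9a3 was counted as higher on siEp300 only, at 6.24 and with a difference of 1.25, and Col16a1, at 7.38 to 7.97 on the transduced arrays against 8.28 on MEF, was within 0.90 of MEF. Neither the 4 transmembrane genes nor Col26a1 and Col28a1 were counted as apart from MEF. In all, 22 of the 30 genes that never reached background were never counted as 2-fold apart from MEF. Their median range over the 7 arrays was 0.65 and their largest was 1.69.

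**Figure D4:**
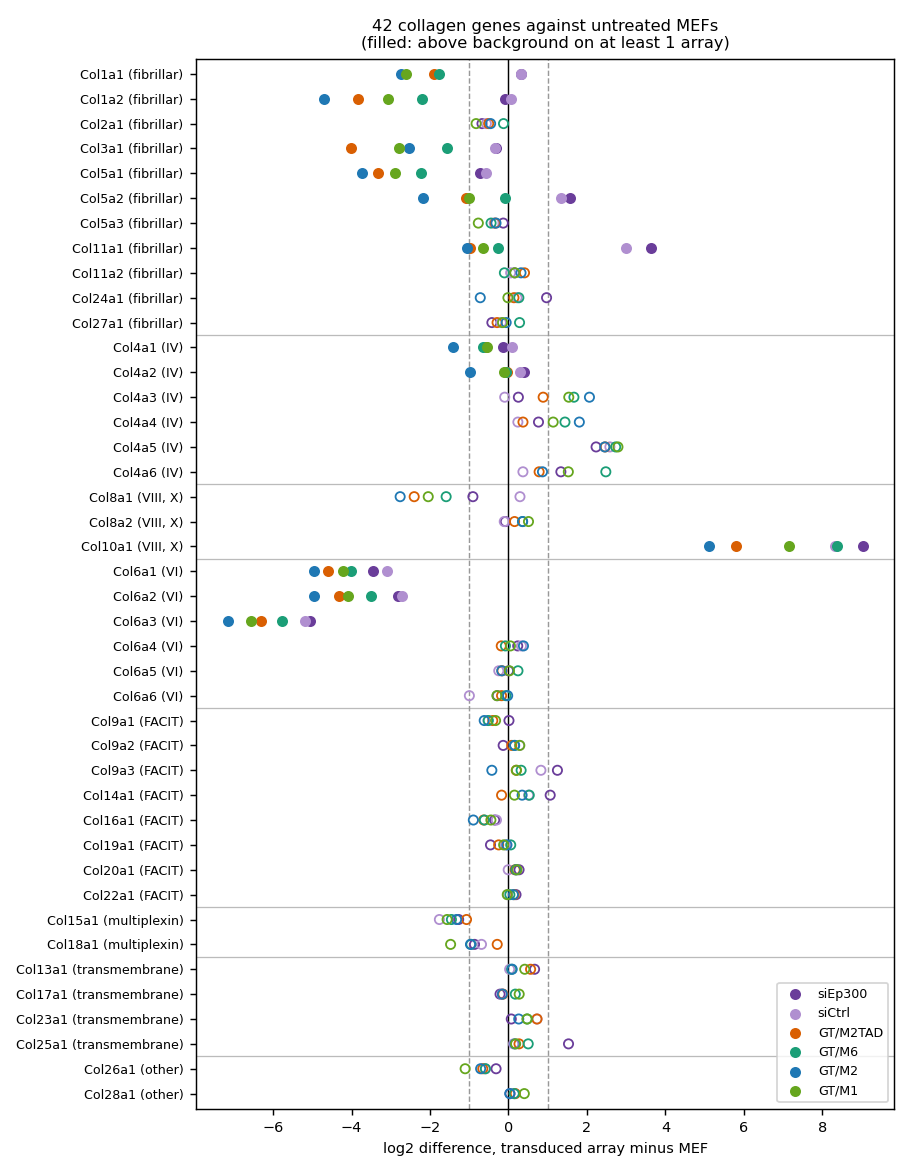
Log2 difference from MEF (horizontal axis) of all 42 collagen genes, grouped by class, with 1 point for each of the 6 transduced arrays and dashed lines at 2-fold. Filled points are genes above background on at least 1 array; the widest shifts are Col10a1 to the right, up to 9.03, and Col6a3 to the left, down to -7.15.

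The Mef2c isoforms were compared to ask whether collagen genes differ between them. GT/M6 against GT/M2 gave 8 of 42 collagen genes higher, 19.0% against 1.85% of all genes, and 0 lower, against 1.71%. With quantile normalization 11 were higher, and the all-gene count of higher genes went from 360 to 391. The 8 were Col10a1 at 3.28, Col1a2 at 2.51, Col5a2 at 2.09, Col4a6 at 1.61, Col5a1 at 1.49, Col6a2 at 1.47, Col6a3 at 1.37 and Col8a1 at 1.17. Of these, Col4a6, Col5a1, Col6a2, Col6a3 and Col8a1 were below background on both arrays. The median difference over the 42 genes was 0.31, against -0.02 over all genes.

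GT/M2 against GT/M1 gave 3 collagen genes lower, 7.14% against 1.39%, and 0 higher, against 1.90%. These were Col10a1 at -2.03, Col1a2 at -1.63 and Col5a2 at -1.16. Of all genes counted in that comparison, 57.7% were higher as deposited and 46.5% after quantile normalization. GT/M6 against GT/M1 gave 2 higher, 4.76% against 0.646%, Col10a1 at 1.24 and Col3a1 at 1.22, and 0 lower, against 0.292%. Among the 4 arrays without siRNA, GT/M2 held the lowest signal for 22 of the 42 collagen genes, 52.4% against 25.6% of all genes. GT/M6 held the highest for 21, 50.0% against 20.3%. Both counts include genes from the 30 that never reached background, and a rank counts however small the difference. Fibroblast markers differed too. Their mean log2 signal over 7 genes was 11.13 on GT/M2TAD, 10.38 on GT/M6, 9.81 on GT/M2 and 10.11 on GT/M1, against 12.33 on MEF, and 5, 5, 3 and 3 of them were above background on these 4 arrays, against 5 on MEF. Markers of smooth muscle and myofibroblasts had means of 11.35 on GT/M2TAD, 10.68 on GT/M6, 9.65 on GT/M2 and 10.17 on GT/M1, against 12.58 on MEF. Their part in the collagen differences was not tested.

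GT/M2TAD against GT/M2 asks what goes with the MyoD domain on the same isoform. Only Col5a2 was higher, by 1.09, which is 2.38% of collagen genes against 2.96% of all genes. Lower were Col3a1 at -1.47, Col4a4 at -1.44 and Col4a3 at -1.18, 7.14% against 3.33%. Col4a3 and Col4a4 were below background on both arrays. Type I genes were 0.83 higher for Col1a1 and 0.86 higher for Col1a2, both short of 2-fold and opposite in sign to Col3a1.

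siEp300 against siCtrl asks which collagen genes differ with Ep300 siRNA. Ep300 itself was 9.47 on siEp300 and 9.90 on siCtrl. Only 1 of 42 collagen genes was counted, Col8a1 at 7.13 on siEp300 against 8.33 on siCtrl, a share of 2.38% against 0.390% of all genes, and it was below background on both arrays. None was higher, against 1.93% of all genes. Among genes above background, Col10a1 differed by 0.71, Col11a1 by 0.64, Col5a2 by 0.25, Col1a2 by -0.16 and Col6a2 by -0.09, all short of 2-fold, and Col1a1 was 15.82 on siEp300 and 15.83 on siCtrl. The all-gene median difference between siEp300 and siCtrl was 0.14 as deposited and -0.02 after median centring, and 83.2% of all counted genes were higher as deposited but 58.0% after centring.

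siCtrl against GT/M2TAD sets transduced cells with control siRNA beside transduced cells without siRNA. Here 11 of 42 collagen genes were higher, 26.2% against 3.04% of all genes, and 0 were lower, against 6.38%. Of all counted genes 32.2% were higher as deposited and 49.4% after median centring. The 11 were Col11a1 at 3.95, Col1a2 at 3.90, Col3a1 at 3.69, Col5a1 at 2.74, Col8a1 at 2.70, Col10a1 at 2.51, Col5a2 at 2.42, Col1a1 at 2.22, Col6a2 at 1.61, Col6a1 at 1.49 and Col6a3 at 1.10. Of these, Col6a1, Col6a3 and Col8a1 were below background on both arrays. No type IV gene was among them against GT/M2TAD, with differences from -0.98 for Col4a3 to 0.66 for Col4a1. Since the labels also name GT/M2 for the siRNA cells, GT/M2 was tried in its place, a choice made after seeing the data. It gave 14 of 42 collagen genes higher, against 5.30% of all genes. Of the 42, 2 were lower, Col4a3 and Col4a4, against 11.2% of all genes. Against GT/M2 the type IV genes Col4a1 and Col4a2 were among the higher ones, at 1.51 and 1.29, so whether type IV genes are counted depends on which array siCtrl is set against.

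Other values differed in this comparison too. Tbx5 was 14.82 on siEp300 and 14.83 on siCtrl, 16.14 to 16.23 on the 4 arrays without siRNA, and 5.72 on MEF. Fibroblast markers had means of 11.32 on siEp300 and 11.41 on siCtrl, against 11.13 on GT/M2TAD. These genes did not move as a set. Of 7 measured, 2 were higher and 1 lower on siCtrl than on GT/M2TAD, with a median difference of -0.10. Smooth muscle markers had means of 13.06 on siEp300 and 13.20 on siCtrl, against 11.35 on GT/M2TAD. Cardiac markers had means of 10.59 on siEp300 and 9.96 on siCtrl, against 11.89 on GT/M2TAD. Their part in the collagen differences was not tested, and siRNA, culture and batch cannot be told apart with 1 array each.

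Genes that modify, cut, cross-link, bind or degrade collagen were read beside the chains, from 6 lists with 52 measured genes. On GT/M2TAD against MEF 12 were higher and 19 lower, 23.1% and 36.5%, against 14.0% and 9.50% of all genes. On siEp300 21 were higher and 9 lower than MEF, 40.4% and 17.3%, against 13.4% and 9.29% of all genes. For siCtrl these were 19 and 10, 36.5% and 19.2%, against 10.9% each way. GT/M6 had 11 and 18, 21.2% and 34.6%, against 13.0% and 8.79%. GT/M2 had 8 and 23, 15.4% and 44.2%, against 13.6% and 8.34%. GT/M1 had 11 and 21, 21.2% and 40.4%, against 12.5% and 9.52%. On siCtrl against GT/M2TAD 23 were higher and 2 lower, 44.2% and 3.85%, against 3.04% and 6.38%. Counts within single lists, given next, stand against these same shares of all genes.

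Of the genes of chain hydroxylation, folding and export, more were higher than lower. Of 17 measured, 8 were higher and 3 lower on GT/M2TAD than on MEF. P3h2, a prolyl 3-hydroxylase, was 14.17 on siEp300, 14.56 on siCtrl, 13.06 on GT/M2TAD, 10.06 on GT/M6, 12.30 on GT/M2 and 10.04 on GT/M1, against 8.11 on MEF, where it was below background. P3h4, a partner of the lysyl hydroxylation complex, was 13.76 on GT/M2TAD against 11.82 on MEF. P4ha3 and P4ha2, catalytic subunits of prolyl 4-hydroxylase, were 8.54 and 7.08 on GT/M2TAD against 13.08 and 8.63 on MEF. P4ha2 was below background on both arrays and P4ha3 on GT/M2TAD.

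Propeptide cleavage genes split, with 3 of 7 higher and 2 lower on GT/M2TAD. Bmp1, the procollagen C-proteinase, and its enhancer Pcolce were 12.98 and 14.97 on GT/M2TAD against 11.04 and 12.28 on MEF. Tll1, a related proteinase, and Pcolce2 were 6.17 and 4.16 on GT/M2TAD against 13.85 and 8.17 on MEF. Pcolce2 was below background on both arrays and Tll1 on GT/M2TAD.

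Cross-linking genes were lower. Of 5 measured, 4 were lower and 0 higher on GT/M2TAD than on MEF, and 5 were higher on siCtrl than on GT/M2TAD. Lox, the lysyl oxidase that cross-links fibrillar collagen, was 17.95 on siEp300, 18.53 on siCtrl, 14.98 on GT/M2TAD, 15.36 on GT/M6, 13.90 on GT/M2 and 14.38 on GT/M1, against 18.39 on MEF. As for Col1a2, siCtrl was the highest array, MEF stood close to it and GT/M2 was the lowest. Loxl1 and Loxl3, of the same family, differed between GT/M2TAD and MEF by -4.08 and -4.34. Loxl4, a further family member, differed by -0.78, and Tgm2, a transglutaminase, by -1.22. Loxl4 and Tgm2 were below background on both GT/M2TAD and MEF.

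Fibril assembly partners had 0 of 9 higher and 4 lower on GT/M2TAD, with Fmod and Bgn, small proteoglycans of the fibril surface, at -3.87 and -3.02 and Dcn and Sparc at 0.61 and 0.73. On the native isoforms the list ran both ways, with 2 higher and 4 lower on GT/M6, 1 and 5 on GT/M2, and 2 and 4 on GT/M1. Dcn, the small proteoglycan decorin, was 10.74 on siEp300, 10.12 on siCtrl, 9.15 on GT/M2TAD, 14.27 on GT/M6, 13.52 on GT/M2 and 15.24 on GT/M1, against 8.54 on MEF. It was thus highest on the arrays of the native isoforms, unlike the type I genes. Fmod was below background on both GT/M2TAD and MEF, and Dcn was below it on MEF. Among 7 collagen receptor genes 1 was higher and 2 lower. Lair1, an inhibitory collagen receptor of leukocytes, was 8.36 on GT/M2TAD against 4.23 on MEF, and Itga11, a fibroblast integrin chain for fibrillar collagen, and Mrc2, an uptake receptor, were at -3.56 and -2.27. Ddr1, a collagen-binding kinase, was at 0.64. Lair1 was below background on both arrays, Itga11 on GT/M2TAD and Ddr1 on MEF. The measured macrophage markers Ptprc, Adgre1, Csf1r and Lyz2 were below background on all arrays. Collagen degradation genes had 0 of 7 higher and 4 lower on GT/M2TAD, among them Mmp9 at -4.06 and the surface protease Fap at -3.98, both below background on either array, and 6 of 7 were higher on siCtrl than on GT/M2TAD. Mmp13 was 8.17 on siEp300 and 8.48 on siCtrl and between 3.26 and 3.96 on the arrays without siRNA, against 3.79 on MEF, and Ctsk, a lysosomal protease, was 6.49 on GT/M2TAD against 6.30 on MEF. Mmp13 was above background on siCtrl alone, where that mark was 8.43.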

How the data were processed

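Expression was measured on the Affymetrix Clariom S mouse array, 1 array per group. The deposited values are log2 signals; per the submitters' processing notes and the series text, the authors made them with Affymetrix Expression Console 1.4 and the SST-RMA method. The method scales arrays, so a change common to most genes may be reduced. The genome build is not given in the sources used here. The table held 28846 probe sets, of which 19572 had 1 gene symbol, 0 had several and 9274 had none. For the 55 genes with several probe sets, none a collagen gene, the set with the highest mean signal was used. All 42 collagen genes matched the RefSeq table of GRCm38.p6 by Entrez identifier.

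Differences of log2 signals were computed with Python 3.11.15 and pandas 2.3.3, and the code of the counting rule was run on simulated data. That run does not give the rule's error rate on these arrays. Here the rule picked 26.8% to 54.2% of the negative-control probes that passed its floor. With 1 array per group there was no test, and the number of arrays limits the precision. Collagen genes and the 6 pathway and 9 marker lists were chosen with earlier results of these data known. Values were printed for every member above background on at least 1 array, for members below it that were 2-fold from MEF on at least 4 of 6 transduced arrays, for partner chains of printed members, and for the 2 highest and 2 lowest genes of each pathway list on GT/M2TAD against MEF, with Lox beside the type I genes. Col9a3, Col14a1, Col16a1, Col18a1, Col24a1, Col25a1, Col2a1, Col8a2, Sox9 and genes of other marker lists were named after their values were seen. Alternatives were the floor, quantile normalization, median centring and the mean of probe sets.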

Additional observations from a re-analysis of the deposited data

Results flagged for a closer look

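Fibrillar genes Col11a1 and Col5a2 lay on opposite sides of MEF on arrays with and without siRNA. Col11a1 differed from MEF by 3.62 on siEp300 and 2.98 on siCtrl, against -0.97 on GT/M2TAD, -0.26 on GT/M6, -1.05 on GT/M2 and -0.64 on GT/M1. Col5a2 differed from MEF by 1.58 on siEp300 and 1.33 on siCtrl, against -1.08 on GT/M2TAD, -0.0805 on GT/M6, -2.17 on GT/M2 and -1.01 on GT/M1. The difference between the arrays with and without siRNA was not tested, since each group had 1 array. Col11a1 was below background on all 4 arrays without siRNA and on MEF, and Col5a2 was above it on all 7 arrays.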

How the results depend on the processing

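Counts of collagen genes 2-fold apart stayed within 1.5 times of the reported ones in all 24 results with quantile normalization and with the mean of probe sets, in 23 with median centring, in 22 without a floor and in 16 with a floor at background. With the floor at background, higher genes against MEF numbered 1 each on GT/M2TAD, GT/M6, GT/M2 and GT/M1 and 3 on siEp300, GT/M6 against GT/M2 gave 3 higher, GT/M2TAD against GT/M2 gave 1 lower and siEp300 against siCtrl 0 lower, all by construction since fewer genes reach it. Without a floor, 8 genes were higher on siEp300 than on MEF and 1 on siEp300 than on siCtrl. Shares of all genes are not given for these other floors, so such counts have no like share beside them. Median centring gave 2 genes higher on GT/M2TAD than on GT/M2, the second being Col4a2. GT/M2 in place of GT/M2TAD, added after seeing the data, gave 2 genes lower on siCtrl. Median centring moved the median of all genes against MEF to between -0.25 and -0.17 on the 4 arrays without siRNA, from 0.07 to 0.09 as deposited. Sign changes were checked for the 12 genes above background on at least 1 array and for Col4a3, Col4a4, Col4a5, Col4a6, Col8a1, Col9a3 and Col15a1. The other collagen genes were not included in that check. Quantile normalization or median centring turned the sign of 9 of these 228 differences, the largest of them 0.32 in size. Among the 9 were Col3a1, Col4a2 and Col6a3 between siEp300 and siCtrl. Either scaling gave 5 collagen genes higher and 6 lower on siEp300 than on MEF. The all-gene count of lower genes there was 1812 as deposited, 2176 with quantile normalization and 2299 with median centring. The count of higher genes was 2623, 2155 and 2104 in the same order. No paired analysis was possible because each group had 1 array. Signal near background limits 30 of the 42 genes.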

Other observations

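Without a floor on low signal, Col25a1, a transmembrane collagen, was 4.86 on siEp300, against 3.46 on siCtrl and 3.33 on MEF, and Col14a1, a fibril-associated chain, was 5.52 on siEp300, against 4.97 on siCtrl and 4.45 on MEF. Both signals lay below the median of genes on the siEp300 array.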
